A study of Mus musculus with 2 samples.

Results

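The subject is the set of broad accessible regions of mouse megakaryocyte-erythroid progenitors (MEP), the bone marrow progenitors of erythrocytes and of the megakaryocytes that shed platelets. Peaks of the conservative list, which the authors deposited for both libraries together, were merged where they overlapped or touched on the 21 main chromosomes. Members were chosen by width alone, a measured value, and 37 of 46200 merged regions were 2000 bp or wider (0.0801%). They covered 82256 of 28341417 bp (0.29%). Narrower promoter regions served as the comparison, which were the 12796 regions under 2000 bp whose strongest summit lay within 1000 bp of a transcription start site (TSS) of a protein-coding gene.

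Chromatin accessibility was measured by ATAC-seq, where an engineered Tn5 transposase cuts and tags open DNA, in 2 libraries of 50000 cells each. All cells are labelled MEP from adult male C57BL/6J mice of 5 to 6 weeks, with no treatment named, so the samples form 1 group. Both libraries name the same donor entry, so they may or may not be separate animals. The label of replicate 1 names a pair of sequencers and that of replicate 2 names none.

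An ATAC-seq peak usually marks a stretch from which a nucleosome has been lost, such as the core of a promoter or an enhancer. Where several such stretches adjoin, a peak caller reports 1 long interval with several summits. Many mammalian promoters lie in CpG islands, stretches rich in the CG dinucleotide, and some pairs of genes share 1 promoter from which they are transcribed in opposite directions. GATA1, a master regulator of red cell and megakaryocyte genes, binds the letters AGATAA, mostly at distal elements.

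The base sequence around the strongest summits is shown for promoter and distal members. The next 3 windows reach 100 bp to either side of the summit and are plus-strand mm10 sequence, from RefSeq GRCm38.p6, of broad promoter regions, the widest whose window holds no annotated untranslated region, with CG dinucleotides in capitals.
Ppp2r3d, chr9:124422877-124423077, plus strand: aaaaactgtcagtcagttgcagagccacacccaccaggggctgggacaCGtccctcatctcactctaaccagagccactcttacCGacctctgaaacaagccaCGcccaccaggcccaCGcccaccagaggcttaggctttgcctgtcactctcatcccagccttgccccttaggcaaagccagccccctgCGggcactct
Zbtb14, chr17:69382555-69382755, plus strand: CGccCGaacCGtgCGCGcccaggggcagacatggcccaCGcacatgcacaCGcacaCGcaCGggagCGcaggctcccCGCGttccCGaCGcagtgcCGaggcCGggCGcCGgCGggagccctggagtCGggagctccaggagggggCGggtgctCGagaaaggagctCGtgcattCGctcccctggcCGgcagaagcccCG
Rev3l, chr10:39731376-39731576, plus strand: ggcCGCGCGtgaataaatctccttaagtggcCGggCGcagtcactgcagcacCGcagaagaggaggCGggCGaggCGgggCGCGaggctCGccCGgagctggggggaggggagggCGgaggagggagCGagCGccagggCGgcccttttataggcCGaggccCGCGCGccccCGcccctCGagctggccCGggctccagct
The summits of these windows lie 606 bp downstream, 395 bp upstream and 642 bp upstream of the nearest TSS. In 17 of the 25 broad promoter regions the strongest summit lies within 150 bp of the TSS. The 3 windows hold 5, 26 and 24 CG dinucleotides. The median was 16 over the 25 broad promoter regions and 5.5 over the 12 broad distal regions. Narrower promoter regions had a median of 15 and distal regions under 2000 bp one of 3.

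The following windows belong to the 2 widest broad distal regions that hold AGATAA in a window free of untranslated regions, and were picked for those letters, which 4 of 12 distal windows hold. They show AGATAA, on either strand, in capitals.
Wapl, chr14:34660617-34660817, plus strand: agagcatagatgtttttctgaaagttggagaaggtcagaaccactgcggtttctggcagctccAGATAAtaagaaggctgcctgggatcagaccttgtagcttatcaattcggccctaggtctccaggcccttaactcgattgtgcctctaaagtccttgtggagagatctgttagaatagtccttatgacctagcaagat
S1pr1, chr3:115716201-115716401, plus strand: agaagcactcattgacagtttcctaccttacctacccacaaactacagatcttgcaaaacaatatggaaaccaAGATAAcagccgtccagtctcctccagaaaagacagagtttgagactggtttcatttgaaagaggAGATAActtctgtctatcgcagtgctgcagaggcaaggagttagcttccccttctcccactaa
The last window comes from the region inside Myo3a, and its single capital marks the base that differs from the mitochondrial genome.
Myo3a, chr2:22587944-22588144, plus strand: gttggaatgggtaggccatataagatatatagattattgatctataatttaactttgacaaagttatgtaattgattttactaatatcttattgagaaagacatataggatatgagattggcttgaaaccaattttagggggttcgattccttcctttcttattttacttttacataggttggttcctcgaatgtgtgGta

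Broad regions measured 2008 to 3183 bp, and their median was 2117 bp, against 816 bp for narrower promoter regions and 543 bp for all regions. Each was 1 interval in the deposited list. The 37 lay on 16 of the 21 chromosomes, with 6 on chromosome 1 and none on chromosomes 4, 6, 12, 16 and X. Most sat at promoters. The strongest summit of 25 lay within 1 kb of a protein-coding TSS, or 67.6% (Wilson 95% interval 51.5 to 80.4, counting error only), against 27.8% of all 46200 regions. Of the other 12, called distal here, 4 still held a coding TSS, and 8 held none. The promoter share did not rise with the width limit. It was 76.8% of the 651 regions of 1500 bp or more and 50% of the 4 of 2500 bp or more.

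The widest region (chromosome 9, 124422786 to 124425968, 3183 bp) held 2 TSS of Ppp2r3d, a regulatory subunit gene of protein phosphatase 2A. Its 7 summits lay between positions -2114 and 606 relative to the TSS, and its folds, the authors' enrichment over background at each summit, were close to each other, from 2.31 to 4.56. A second broad region (2180 bp) held another TSS of the same gene, 12818 bp away, the smallest gap between 2 broad regions. Within 1 Mb of a chromosome end lay 3 broad regions (8.11%), these 2 and that of Csf2ra, against 1.09% of narrower promoter regions. They were 169, 154 and 204 kb from the end, with the chromosome Y region next at 1004 kb, and this distance was looked at after the positions were seen.

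The other promoter regions among the 10 widest were those of Slc38a1 (2576 bp), an amino acid transporter, Pfkfb2 (2427 bp), a regulator of glycolysis, Gna13 (2408 bp), a G protein subunit, and Stat6 (2398 bp), which carries interleukin 4 signals to the nucleus. Zbtb14 (2391 bp), a zinc finger gene, Mrpl14 (2381 bp), a mitochondrial ribosomal protein, and Rev3l (2244 bp), the catalytic subunit of a translesion DNA polymerase, followed. Also in the promoter class were the regions of the cytokine receptor genes Csf2ra and Crlf2 (2095 bp each). The Crlf2 region lay inside the gene, wholly downstream of the nearest TSS. A coding TSS lay inside 24 of the 25 promoter members, all but that of Crlf2. The layout around the TSS varied. The Pfkfb2 region reached 2139 bp upstream and 287 bp downstream of the TSS, while that of Ppargc1b, a transcriptional coactivator, reached 163 bp upstream and 1963 bp downstream. Over the 25 broad promoter regions the median reach was 1174 bp upstream and 1067 bp downstream, against 389 and 448 bp in narrower promoter regions. In promoter regions of 1500 to under 2000 bp it was 725 and 919 bp. A longer reach follows from the width that chose the members and is no separate result.

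Shared promoters were frequent among the members. TSS of at least 2 coding genes lay inside 10 of 25 broad promoter regions, or 40% (23.4 to 59.3), against 8.36% (7.90 to 8.85) of narrower ones and 19.4% (16.1 to 23.2) of the 475 promoter regions of 1500 to under 2000 bp. A wider region has more room for a TSS, so these shares also follow from the width that chose the members. Among the pairs were Pfkfb2 and Yod1, Mrpl14 and Tmem63b, Ift80 and Smc4, Krit1 and Ankib1, Hdlbp and Sept2, Mblac2 and Polr3g, Exoc8 and Sprtn, Fam72a and Srgap2, and Hist1h2be and Hist1h1e. The histone pair had its TSS on the same strand. Coding TSS on both strands lay in 9 of these 25 regions (36.0%, 20.3 to 55.5), against 7.76% (7.31 to 8.24) of narrower promoter regions. In promoter regions of 1500 to under 2000 bp the share was 18.3% (15.1 to 22.0). Smc4 encodes a condensin subunit, Ift80 a part of the transport complex of cilia, and Hist1h2be and Hist1h1e encode a core and a linker histone.

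Broad regions held 4 to 10 summits with a median of 7, against 2 in narrower promoter regions. Per kb the medians were 2.97 in broad and 2.73 in narrower promoter regions, and neighbouring summits lay a median of 294 bp apart in broad regions and 291 bp in narrower ones. Most summits were found in the regions of Myo3a and Stat6 (10 each), of Nrbp2, Slc38a1 and Adamts17 (9 each). In the Stat6 region the strongest summit (fold 7.75) lay 14 bp upstream of the TSS. A second one of fold 5.00 lay 1067 bp downstream, and the 8 others had folds of 2.04 to 3.76.

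Promoter members were defined by a strongest summit within 1 kb of a TSS, so the position and height of their summits are given as a description only. In the 25 broad promoter regions 23 of 165 summits lay within 150 bp of the TSS, with a median fold of 6.12, and 17 of them were the strongest of their region. The 26 summits more than 1000 bp upstream had a median fold of 2.98, and the 19 more than 1000 bp downstream one of 3.22. Over all 37 members the strongest summit exceeded the second by a median of 1.21 times. The ratio was largest in the region near Hsph1 at 2.01, while the first 2 summits of Hdlbp were level (6.26 and 6.25).

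**Figure D1:**
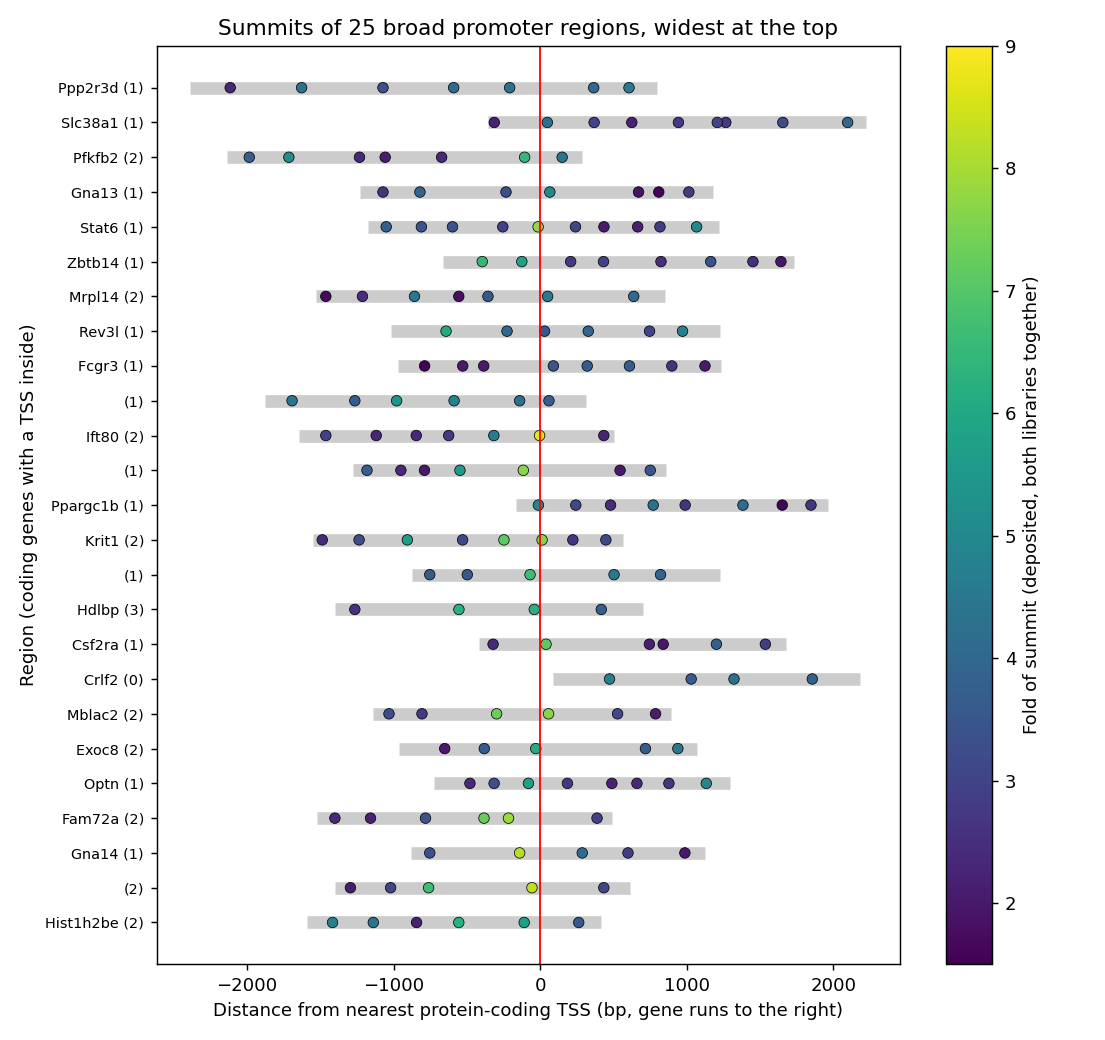
Position of every summit (points, coloured by the deposited fold) in the 25 broad promoter regions (grey bars), in bp from the nearest protein-coding TSS (red line), widest region at the top and with the number of coding gene entries whose TSS lies inside. Rows of genes not named in the text carry no gene name. The strongest summit lies within 150 bp of the line in 17 regions and, by the definition of the class, within 1 kb of it in all.

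The members, though widest, did not have the highest strongest summits. The fold of the strongest summit ranged from 3.36 to 10.2 in broad regions with a median of 6.12 (quartiles 4.93 and 7.62), against 7.67 (5.52 and 10.1) in narrower promoter regions. Among the broad promoter regions alone it was 6.26 (4.95 and 7.64). In narrower promoter regions the median was 7.97 at 1500 to under 2000 bp, 8.99 at 1000 to under 1500 bp, 8.03 at 500 to under 1000 bp and 4.94 below 500 bp. For each single library the authors also deposited a list thresholded on the irreproducible discovery rate (IDR), which keeps peaks whose rank repeats, and a longer list called pseudoreplicated. The order of broad and narrower regions was the same in the IDR-thresholded list of each library (medians of 6.03 and 7.91 in replicate 1, and of 6.33 and 8.34 in replicate 2). It turned by a small margin with a minimum width of 1500 bp (7.72 and 7.64) and in the longer replicated list (6.12 and 6.11), so no difference is claimed.

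**Figure D2:**
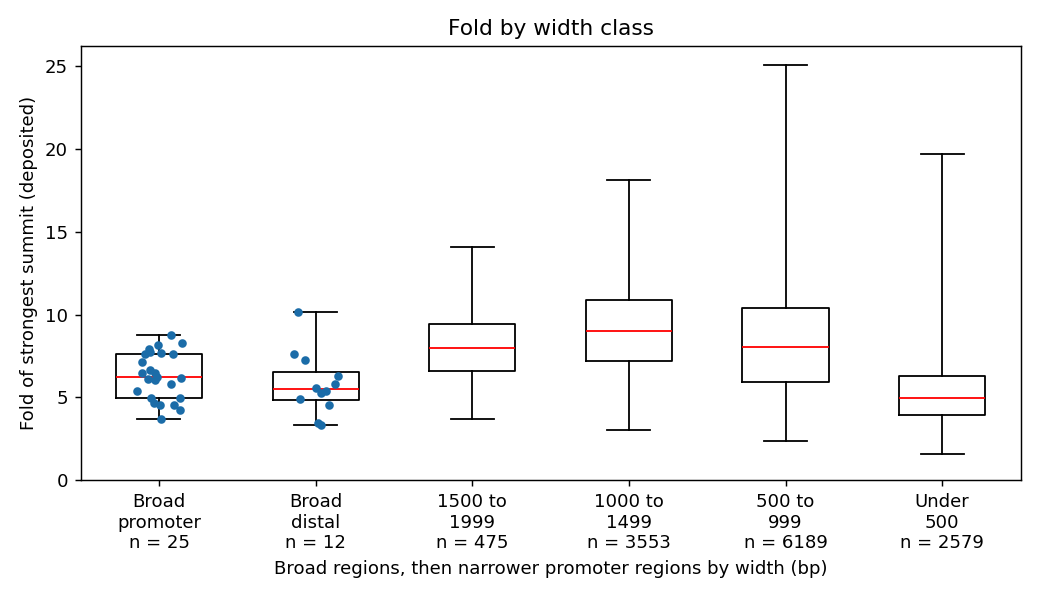
Deposited fold of the strongest summit in broad promoter and broad distal regions (points, n = 25 and 12), then in narrower promoter regions by width in bp. Boxes show the median (red) and quartiles and whiskers the full range, and the medians are 6.26 and 5.49 in the broad classes against 8.99 in the 1000 to under 1500 bp class.

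Among the highest folds were those of the region near Zfp52 (10.2), Ift80 (8.75), Gna14 (8.16) and Fam72a (7.89). In the longer pseudoreplicated list of each library the Zfp52 region had folds of 9.83 in replicate 1 and 9.63 in replicate 2, a mean of 9.73 ± 0.139 (SD, n = 2). Ift80 had 8.48 and 8.25, and Gna14 8.46 and 7.21. These members were picked by the fold of both libraries together, so their order in each library is no separate result. The lowest were the chromosome Y region nearest to Gm21860 (3.36 in both libraries together, 2.99 and 3.70 in the single ones), the exon region of Eppk1 nearest to Nrbp2 (3.46, 2.99 and 3.75) and Fcgr3, an Fc receptor gene (3.69, 3.66 and 3.79). Over the 37 regions the SD between the library folds was 0.0222 to 0.886 with a median of 0.215, although the folds were not scaled between libraries.

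Just inside the 2000 bp limit stood Hist1h2be (2008 bp, fold 6.19, 6 summits), and Gna14 (fold 8.16, 5 summits) and the region near Hsph1 (fold 7.65, 6 summits), both of 2009 bp. Just outside stood a distal region near Dct (1998 bp, fold 8.08, 6 summits), Tmtc2 (1997 bp, fold 8.10, 6 summits) and Pxn (1996 bp, fold 4.08, 7 summits).

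The width of the members differed between the list of both libraries and those of single libraries. Members were chosen by their width in the list of both, a choice that favours smaller widths elsewhere. The IDR-thresholded list of replicate 1 held 13 regions of 2000 bp or more and that of replicate 2 held 8, against 37 in the list of both together. At 12 of the 37 members the region of replicate 1 reached 2000 bp, and at 8 that of replicate 2. Both reached it at 2, in Myo3a (2916 and 2912 bp) and Crlf2 (2081 and 2062 bp), and neither did at 19. In replicate 1, 3 members (8.11%) were split into 2 pieces, and in replicate 2, 10 (27.0%) were. The share was 9.26% in replicate 1 and 14.3% in replicate 2 for promoter regions of 1500 to under 2000 bp, and 0.712% and 0.745% for all regions. Other members were single but shorter in 1 of these IDR-thresholded lists. In Zbtb14 the widest stretch was 2331 bp in replicate 1 and 740 bp in replicate 2, and in Csf2ra 933 and 2089 bp. In the longer pseudoreplicated lists these shorter ones were 2 pieces. They covered 96.6% of the Zbtb14 region in replicate 2 and 95.6% of the Csf2ra region in replicate 1. Read counts were not used here, and the part of sequencing depth in the width was not tested.

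**Figure D3:**
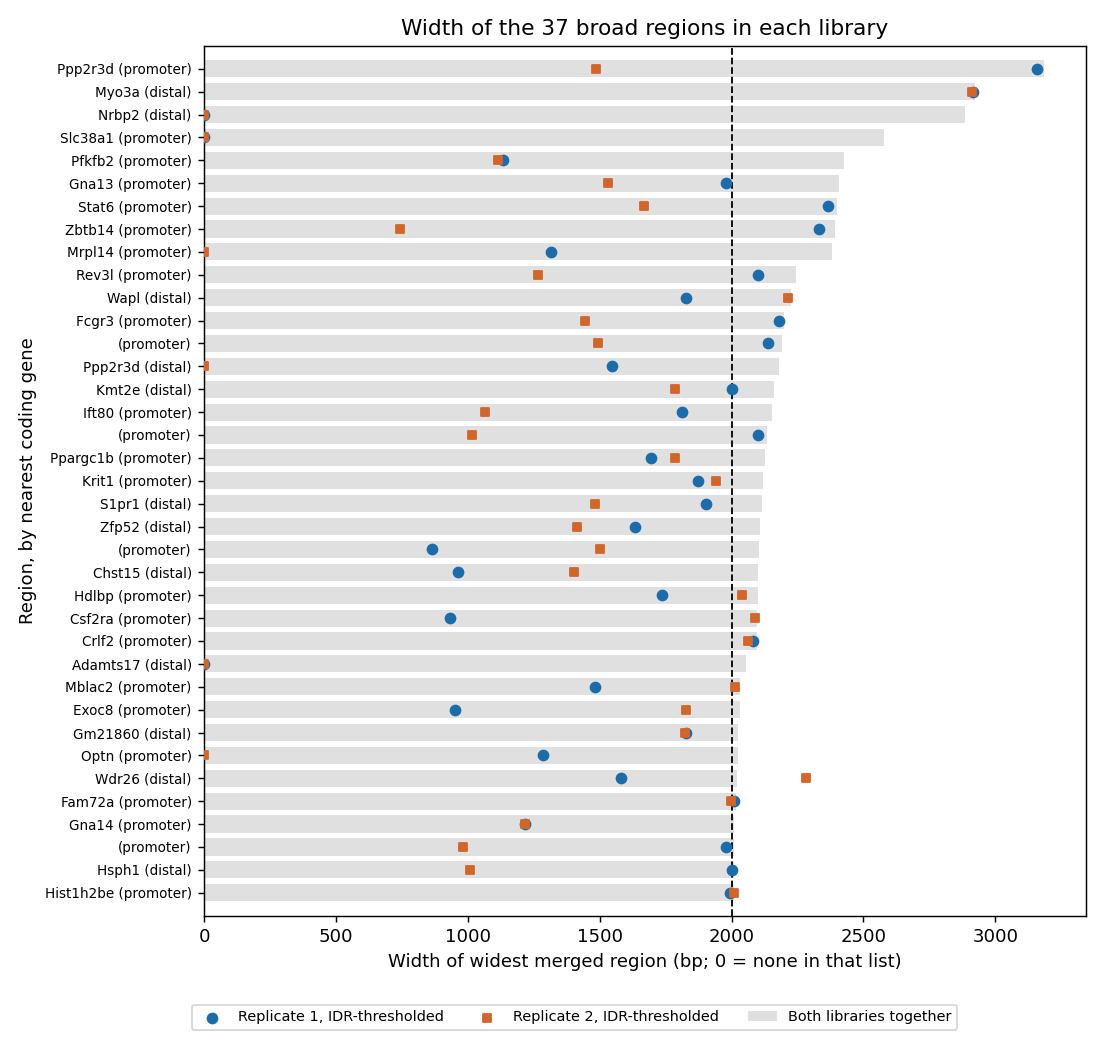
Width in bp of the 37 broad regions in the list of both libraries together (grey bars) and of the widest region overlapping each in the IDR-thresholded lists of replicate 1 (blue circles) and replicate 2 (orange squares), with 0 where there was none. Most points lie left of the dashed 2000 bp line, and both libraries pass it in 2 regions.

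Presence of the members in each library was read next. The list that gave the members was made from both libraries, which favours their presence in each. Overlap of any length was counted, which favours wide regions. A region overlapped 31 of the 37 in both IDR-thresholded lists, or 83.8% (68.9 to 92.4), against 73.6% (72.8 to 74.4) of narrower promoter regions, 94.1% (91.6 to 95.9) of those of 1500 to under 2000 bp and 48.6% of all regions. With 50% of the region covered in both IDR-thresholded lists the share was 67.6% of the members. It was 70.2% of narrower promoter regions, 81.5% of those of 1500 to under 2000 bp and 46.3% of all regions. In the pseudoreplicated lists all 37 members were overlapped in both libraries. So were 97.0% of narrower promoter regions, 100% of those of 1500 to under 2000 bp and 92.6% of all regions. The members missing from both IDR-thresholded lists were Slc38a1, the Eppk1 exon and an intron of Adamts17, a metalloprotease gene. Mrpl14, the second region of Ppp2r3d and Optn, an autophagy receptor gene, were missing in replicate 2.

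The 12 distal members were of different kinds. A coding TSS more than 1 kb from the strongest summit lay inside 4 of them, and these were Kmt2e (2162 bp), S1pr1 (2116 bp), Chst15 (2100 bp) and the second Ppp2r3d region. Kmt2e is a chromatin regulator, S1pr1 a receptor for sphingosine 1-phosphate that guides cell traffic, and Chst15 a sulfotransferase. Counting TSS of noncoding genes, 30 of 37 strongest summits (81.1%, 65.8 to 90.5) lay within 1 kb of an annotated start. Such starts were found in the region of the lincRNA Gm49024 (13211 bp upstream of Wapl, fold 7.27) and in that of the pseudogene CT010433.1 (18566 bp upstream of Zfp52).

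Among the other 7, with no annotated start that close, were the regions on chromosome 1 (181255859 to 181257880, 45420 bp upstream of Wdr26, fold 5.82) and chromosome 5 (149647852 to 149649860, 12952 bp upstream of Hsph1, fold 7.65). The region on chromosome 15 (76102644 to 76105528, 2885 bp) lay wholly within coding sequence of Eppk1, which encodes the cytoskeletal linker epiplakin. It had 9 summits of fold 2.04 to 3.46 and was in neither IDR-thresholded list. The Adamts17 intron region also had 9 summits, with a strongest fold of 4.57.

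Parts of the set lie in sequence that occurs more than once. The region inside an intron of Myo3a (chromosome 2, 22587312 to 22590233, 2922 bp), which holds the starts of the pseudogenes Gm13340 and Gm13341, aligned over 99.9% of its length to the mitochondrial genome at 97.5% identity (positions 4745 to 7675). In its printed window all bases but 1 were the same as there. Its 10 summits ran from fold 2.11 to 5.40, its −log10 p of 211 was the highest of the 37, and its width differed by 4 bp between the libraries. The Fcgr3 region, which holds the miRNA gene Mir6546, aligned over its whole length to 2 other places on chromosome 1 at 99.3% and 99.2% identity, where the conservative list held regions of 1271 and 1084 bp. With 50% cover and 90% identity as limits, 2 of 37 members (5.41%, 1.5 to 17.7) had another copy, against 2.05% (1.82 to 2.31) of narrower promoter regions. The folds of both are uncertain, since how reads with several matching places were assigned is not given in the sources used here. The chromosome Y region aligned over 45.5% of its length to 2 places nearby at 93.3% identity.

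Base composition differed in its medians between the promoter and distal members. Median GC content was 60.9% in broad promoter and 52.3% in broad distal regions, against 59.8% in narrower promoter regions. The CpG ratio, observed over expected CG dinucleotides, had medians of 0.775 in broad promoter and 0.439 in broad distal regions, against 0.711 in narrower promoter regions. A ratio of 0.6 or more was reached by 22 of 25 broad promoter regions (88.0%, 70.0 to 95.8) and 2 of 12 broad distal ones, Kmt2e and Chst15, against 69.3% (68.5 to 70.1) of narrower promoter regions. Distal regions under 2000 bp had a median GC content of 48.6% and a median ratio of 0.223, both below those of broad distal regions. A ratio of 0.6 or more was reached by 4.74% of these narrower distal regions. Among promoter members Rev3l was highest at 0.920 and Stat6 lowest at 0.430. Among all members the region near Hsph1 was lowest, at 0.152 with 18 CG dinucleotides in 2009 bp, and the first Ppp2r3d region had most, with 267. Windows of 200 bp with a GC content of at least 50% and a CpG ratio of at least 0.6 covered a median of 83.6% of broad promoter regions, against 80.0% of narrower ones.

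**Figure D4:**
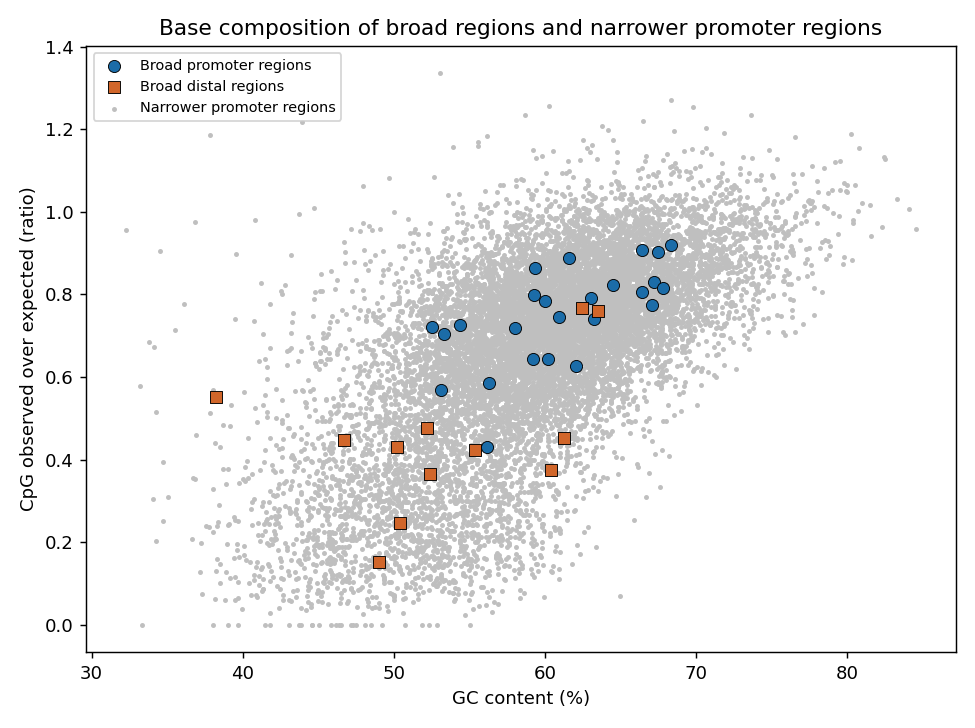
GC content (percent) and CpG ratio (observed over expected) of the 25 broad promoter regions (blue circles) and 12 broad distal regions (orange squares), over the 12796 narrower promoter regions (grey). Promoter members spread over the grey cloud, from a ratio of 0.430 to 0.920, while 10 of 12 distal members lie below a ratio of 0.6.

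Short sequence motifs were counted in the same regions. The letters AGATAA, counted on both strands in windows reaching 100 bp to either side of the strongest summit, were in 0 of 25 broad promoter regions, which allows a share of up to 12%, and in 4 of 12 broad distal ones (33.3%, 13.8 to 60.9), against 6.39% (5.98 to 6.83) of narrower promoter regions and 22.9% of all regions. The 4 were the regions of Wapl, S1pr1, Adamts17 and Hsph1. The SP and KLF box CCGCCC was in 16 of 25 broad promoter windows (64.0%, 44.5 to 79.8) and 2 of 12 distal ones, against 56.6% (55.7 to 57.4) of narrower promoter and 23.3% of all windows. The KLF1-type letters CCACACCC were in 4 of 37 broad windows (10.8%, 4.29 to 24.7), against 3.56% (3.25 to 3.89) of narrower promoter windows and 4.28% of all. None of the windows of broad regions held the NRF1 letters GCGCATGC (0 of 37), which are in 3.78% of narrower promoter and 1.49% of all windows, and 37 windows allow a share of up to 8.11%. The ETS letters CCGGAAG were in 2 of 37 (5.41%, 1.5 to 17.7), against 14.5% (13.9 to 15.1) of narrower promoter and 5.36% of all windows. The NFY letters CCAAT were in 10 of 37 broad windows (27.0%), against 32.5% of narrower promoter and 24.7% of all windows, and the E-box CAGCTG in 6 (16.2%), against 11.7% and 15.2%. The YY1 letters AAGATGGC were in 2 and the CRE TGACGTCA in 1, against 3.47% and 3.09% of narrower promoter windows and 2.02% and 1.15% of all. The AP-1 or NFE2 core TGANTCA and the RUNX letters TGTGGTTT were in 0, against 3.10% and 0.805% of narrower promoter windows and 6.10% and 2.51% of all. Counted over whole regions, the NRF1 letters had 0.144 matches per kb in broad promoter and 0.126 in narrower promoter regions. For the ETS letters these values were 0.379 and 0.409, and for the AP-1 or NFE2 core 0.162 and 0.166. For AGATAA they were 0.198 and 0.317, and for the RUNX letters 0.018 and 0.042. So motifs absent from the windows of broad promoter regions still occurred elsewhere in these regions. None of these motifs contains another. A match here describes letters only.

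Gene lists were read against all genes. Among 21829 protein-coding genes, 38 had a TSS within 1 kb of a broad region (0.174%). Of 445 annotated genes in 14 lists, 3 did: Hist1h2be and Hist1h1e of 67 replication-dependent histone genes, which share 1 region, and Fcgr3 of 24 granulocyte and macrophage genes, whose region has the copies described above. At the share of all genes, lists of this size would mostly hold none, so the empty lists are not a result about their genes. None of 25 blood transcription factors, 24 erythroid, 25 megakaryocyte and platelet, 25 immediate early, 22 feedback inhibitor, 26 chromatin regulator, 20 cell cycle, 24 housekeeping, 85 ribosomal protein, 39 Hox, 20 lymphoid and 19 hepatocyte genes had one. With a minimum width of 1500 bp there were 17 of the 445, against 622 of the 21829 protein-coding genes (2.85%). Histone genes gave 5 of 67 (7.46%), immediate early genes 3 of 25 (12%), housekeeping genes 3 of 24 (12.5%) and chromatin regulators 2 of 26 (7.69%). The blood transcription factor, erythroid, ribosomal protein, and granulocyte and macrophage lists gave 1 each. The blood transcription factor was Etv6 (1614 bp). The immediate early genes, which respond first to growth signals, were Egr1 (1973 bp), Zfp36l2 (1680 bp) and Ier5 (1632 bp).

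The label of the cells was checked by the promoters of 8 MEP genes. Of these, 5 had a promoter region in both IDR-thresholded lists (Kit, Gata1, Klf1, Epor and Zfpm1) and 7 in both pseudoreplicated ones. Promoter regions in both IDR-thresholded lists were also found for 3 of 24 granulocyte and macrophage, 4 of 20 B and T cell and 1 of 19 hepatocyte genes. The part of other cell kinds in the results was not tested.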

How the data were processed

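The authors deposited narrowPeak lists built on mm10 (GRCm38), with ratio values (fold of each peak, column 7) and −log10 p values (column 8), a reading from the files' layout, neither scaled between libraries. No aligner, peak caller, version or Tn5 offset is named there or in the labels (not given in the sources used here). Read counts were not used, so depth is unknown. From the conservative list, peaks that overlapped or touched were merged in Python, and each region takes its summit and fold from the peak of highest fold. Genes and TSS came from GENCODE M21, sequences from RefSeq GRCm38.p6, whose chromosome lengths match mm10. Copies were sought with minimap2 2.31. Width chose the members, with 1 group and 2 libraries, so no test was run, and values are descriptions with Wilson 95% intervals that cover counting error only. The merging was checked on simulated data. Members, lists, motifs and the naming rule (the widest, the highest and lowest folds, most summits, distal, nearest the limit) were chosen with earlier results of these data known. The IDR-ranked, pooled pseudoreplicated and archived lists were not used here. Some regions and genes are not reported here by name.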

Additional observations from a re-analysis of the deposited data

How the results depend on the processing

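With a minimum width of 1500 bp there were 651 broad regions, 76.8% with a promoter summit, with a median fold of 7.72, 5 summits, a CpG ratio of 0.689 and 90.8% in both IDR-thresholded lists, and 17 list genes. At 2500 bp there were 4, with 50% promoter summits, a fold of 4.39, 9 summits, a ratio of 0.648 and 50% in both lists. Joining peaks up to 150 bp apart gave 78 regions, 73.1% with a promoter summit, a ratio of 0.667 and 88.5% in both lists. The list thresholded on pooled pseudoreplicates moved the share in both lists to 86.1%. The longer replicated list moved the fold of narrower promoter regions to 6.11. Keeping peaks of the upper 50% by fold gave medians of 6.575 in broad and 8.58 in narrower promoter regions, 96.2% in both lists and 1 summit per broad region, since weaker summits of an interval drop out. Requiring a coding TSS inside gave a promoter share of 75.7% and a fold of 8.26 in narrower regions, and counting any annotated gene a share of 81.1%. The share in both lists was 67.6% with 50% of the region covered in each library and 100% in the pseudoreplicated lists. From 1 library alone, the lists gave 8 to 13 broad regions and a promoter share of 62.5 to 69.2%. Medians were 6.03 to 6.33 (fold), 7.91 to 8.34 (fold of narrower promoter regions) and 5.5 to 7 (summits). Those of GC content were 54.8 to 61.5% and those of the CpG ratio 0.6825 to 0.728. The share of these regions in both lists was 100%, which is partly fixed, because each region overlaps its own list. Leaving out the 2 regions with another copy, an alternative chosen after seeing the data, gave 35 regions, a fold of 6.19 and 7 summits. The cause of these shifts was not tested where the setting does not itself set them. No paired analysis was possible because the samples form 1 group.

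The list of 37 rests on 1 width limit and 2 libraries, whose depth is unknown. Regions are not replicates, so intervals say nothing of the spread between animals.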
